A study of Mus musculus with 8 samples.

Results

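The genes described here encode the subunits of oxidative phosphorylation, the mitochondrial machinery that makes ATP with oxygen. They were chosen by name: every gene whose symbol starts with Nduf, Sdha to Sdhd, Uqcr, Cox4 to Cox8 or Atp5 and that has a probe set with a single gene symbol. This gave 94 of the 18193 genes on the array, with 185 probe sets between them. Of the 94, 81 encode subunits, among them 8 tissue-restricted forms, and 13 encode assembly factors or related proteins that share the name. By complex, 42 belong to complex I, 8 to complex II, 8 to complex III, 19 to complex IV and 17 to complex V. A further 10 probe sets name more than 1 gene and were not used to represent a gene, so Ndufs6 and Ndufa11 are not among the members.

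Complexes I and II pass electrons from NADH and succinate to ubiquinone, complex III passes them on to cytochrome c, and complex IV passes them to oxygen. Complexes I, III and IV pump protons out of the mitochondrial matrix, and complex V, the ATP synthase, lets them back to make ATP. Each complex has a catalytic core, joined in all but complex II by accessory subunits. Sensory neurons with long axons depend on this machinery for ion pumping and transport.

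RNA of trigeminal ganglia, where sensory neurons that serve the face and mouth have their cell bodies, was hybridised to 8 Affymetrix mouse arrays. The control group (genotype control, n = 4) and the transgenic group (genotype daDREAM transgenic, titles tagged tg16, n = 4) were both adult males of the strain given as C57B/6XCBA. Kcnip3 encodes DREAM, a transcriptional repressor that binds calcium and the DNA core GTCA, and daDREAM is a mutant form built to stay active. The labels do not give the promoter that drives the transgene, the age in weeks or whether ganglia were pooled, so the p-values cover only the spread among the 8 arrays, part of which may be technical.

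All values are RMA log2 expression values per probe set. A gene is represented by its brightest probe set, taken as the mean of the 8 arrays. Differences are transgenic minus control, and a gene passed the test at a limma adjusted p under 0.05 over all genes. In whole ganglia, fewer cells of a type and less RNA per cell cannot be told apart. A log2 level of 1 probe set is not comparable with that of another as an amount of RNA. Amounts are therefore compared only within a probe set.

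Sensory neuron markers read high on every array: the mean of the 12 measured ones lay between 11.93 and 12.13 in controls and between 11.97 and 12.13 in transgenic ganglia, and 0 of 12 passed. Kcnip3 read 10.13, 10.42, 10.27 and 10.10 in controls and 10.29, 10.31, 10.28 and 10.16 in transgenic ganglia. Some arrays stood apart. Acta1, the actin of skeletal muscle, was at 9.20 on control replicate 1 and 9.40 on control replicate 3, and at 6.60 to 7.07 elsewhere. Pituitary Gh was highest on control replicate 3 (11.15) and transgenic replicates 3 and 4 (12.50 and 13.43). The mean of the 18S control probe sets was highest on control replicates 1 and 4 (9.41 and 10.65), and Xist, a transcript of female cells, read 10.20, 11.72 and 11.51 on control replicates 3 and 4 and transgenic replicate 4, against 6.10 to 6.49 elsewhere, although all samples are labelled male. The mean of 10 central nervous system markers was higher on every transgenic array (9.16 to 9.66) than on any control (8.30 to 9.05), and 1 of them, Aqp4, passed; Gfap averaged 9.34 and 10.92 (limma adjusted p = 0.0660). Of 8 granulocyte markers 3 passed as higher, S100a8 by 1.03, S100a9 by 1.08 and Lcn2 by 0.53, where 0.984% of all genes did. Camp, Ngp and Ltf were 0.18 to 0.37 higher without passing, and Elane and Mpo were lower, at -0.22 and -0.11. The part of these signals in the members' values was not tested. Values without these arrays are given beside the calls below.

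Promoter letters were compared between the members and all genes, as a description with no test. RefSeq (GRCm38.p6) held start sites for 78 of the 94 genes, and the 250 bases before each start were searched on both strands. The palindrome of nuclear respiratory factor 1, searched with 1 free base, stood before 12 of the 78 genes (15.4%), against 4.23% of 27025 genes with such a window. Letters of the ETS family, to which the mitochondrial regulator GABPA belongs (CCGGAAG), stood before 16 (20.5%), against 7.83%. The GTCA core stood before 69 (88.5%), against 82.5%, and is part of the estrogen-related receptor letters AAGGTCA, found before 5 members (6.41% against 4.70%). YY1 letters (AAGATGGC) stood before 1 member (1.28% against 1.83%) and TATAAA before 7 (8.97% against 14.3%).

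The 10 bases of nuclear respiratory factor 1 are shown in capitals in 3 members that share the same palindrome, with 10 bases on each side. Ndufaf4 encodes a complex I assembly factor, Atp5k a small subunit of the ATP synthase and Cox6a1 a subunit of complex IV. These windows lie at chr4:24897960-24897989 (plus strand), chr5:108434430-108434459 (minus) and chr5:115349101-115349130 (minus).
Ndufaf4: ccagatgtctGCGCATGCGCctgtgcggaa
Atp5k: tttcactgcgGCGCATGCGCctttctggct
Cox6a1: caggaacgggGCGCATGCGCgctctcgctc

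The next 4 sequences are the 150 bases before the start of the members with a probe set past the test, whose values follow. Capitals mark the GTCA core (read as TGAC on the other strand) and the palindrome of nuclear respiratory factor 1. They lie at chr10:94198885-94199034 (plus) for Ndufa12, chr11:4704345-4704494 (minus) for Uqcr10, chr7:97399853-97400002 (plus) for Ndufc2 and chr15:102671048-102671197 (minus) for Atp5g2.
Ndufa12: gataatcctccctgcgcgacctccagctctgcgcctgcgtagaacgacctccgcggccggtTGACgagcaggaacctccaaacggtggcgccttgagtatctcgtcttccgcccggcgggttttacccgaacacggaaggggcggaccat
Uqcr10: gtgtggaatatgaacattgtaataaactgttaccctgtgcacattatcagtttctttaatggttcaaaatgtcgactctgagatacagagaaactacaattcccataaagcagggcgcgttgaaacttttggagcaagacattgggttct
Ndufc2: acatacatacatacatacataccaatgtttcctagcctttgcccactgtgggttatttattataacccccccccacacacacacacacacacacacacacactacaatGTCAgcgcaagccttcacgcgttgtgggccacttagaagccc
Atp5g2: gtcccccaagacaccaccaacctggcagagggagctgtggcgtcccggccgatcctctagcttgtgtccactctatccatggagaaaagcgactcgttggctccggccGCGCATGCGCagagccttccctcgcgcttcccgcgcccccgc
The windows of Ndufa12 and Ndufc2 held 1 GTCA core each, that of Atp5g2 held the palindrome, and that of Uqcr10 held neither. The median difference was 0.03 over the 12 members with the letters of nuclear respiratory factor 1 and 0.05 over the 66 without. A match to these letters is a description of the sequence, not a measured binding site.

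At the representative probe sets, the transcripts of oxidative phosphorylation differed little between the groups. Of the 94 genes, 1 passed as higher (Ndufa12), 0 as lower and 93 did not pass. That is 1.06% of the members, where 2.00% of all genes passed (0.984% higher and 1.02% lower). With each gene represented by its brightest probe set in controls alone, an alternative added after seeing the data, 0 members passed, since Ndufa12 then has another probe set. Differences ran from -0.31 to 0.64 with a median of 0.05, and apart from Ndufa12 none was above 0.31. Larger falls lay outside this count: the other probe sets of Uqcr10 fell by 2.89 and 1.22 (limma adjusted p = 6.22e-09 and 0.00244 over probe sets). Before adjustment 11 members (11.7%) had a limma p under 0.05, 9 of them higher, against 18.2% of all genes.

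The intervals show how large a change at the representative probe set could have been missed. For 88 of the 94 members (93.6%) the 95% interval of the difference lay wholly between -0.5 and 0.5, a change of up to 1.41-fold, as it did for 87.6% of all genes. For 56 members (59.6%) it lay between -0.25 and 0.25, or 1.19-fold, against 29.5% of all genes. The 6 members with wider bounds were Ndufa12, Sdhc, Cox6b2, Cox8b, Cox8c and Atp5e. The intervals do not bound a gene's other probe sets. Uqcr10 counts as within 0.5, from -0.37 to 0.12, while its other probe sets fell by 2.89 and 1.22. Ndufb4 and Cox7b2 also count as within 0.5, but at means of 4.90 and 4.98 they lie near background, where a change may not be seen. The spread behind these intervals was small: the median SD within a group was 0.08 over the members and 0.12 over all genes. The members' probe sets also read brighter, with a median of 11.86 against 7.97 over all genes. Spread and interval width were not compared among genes of like brightness.

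**Figure D1:**
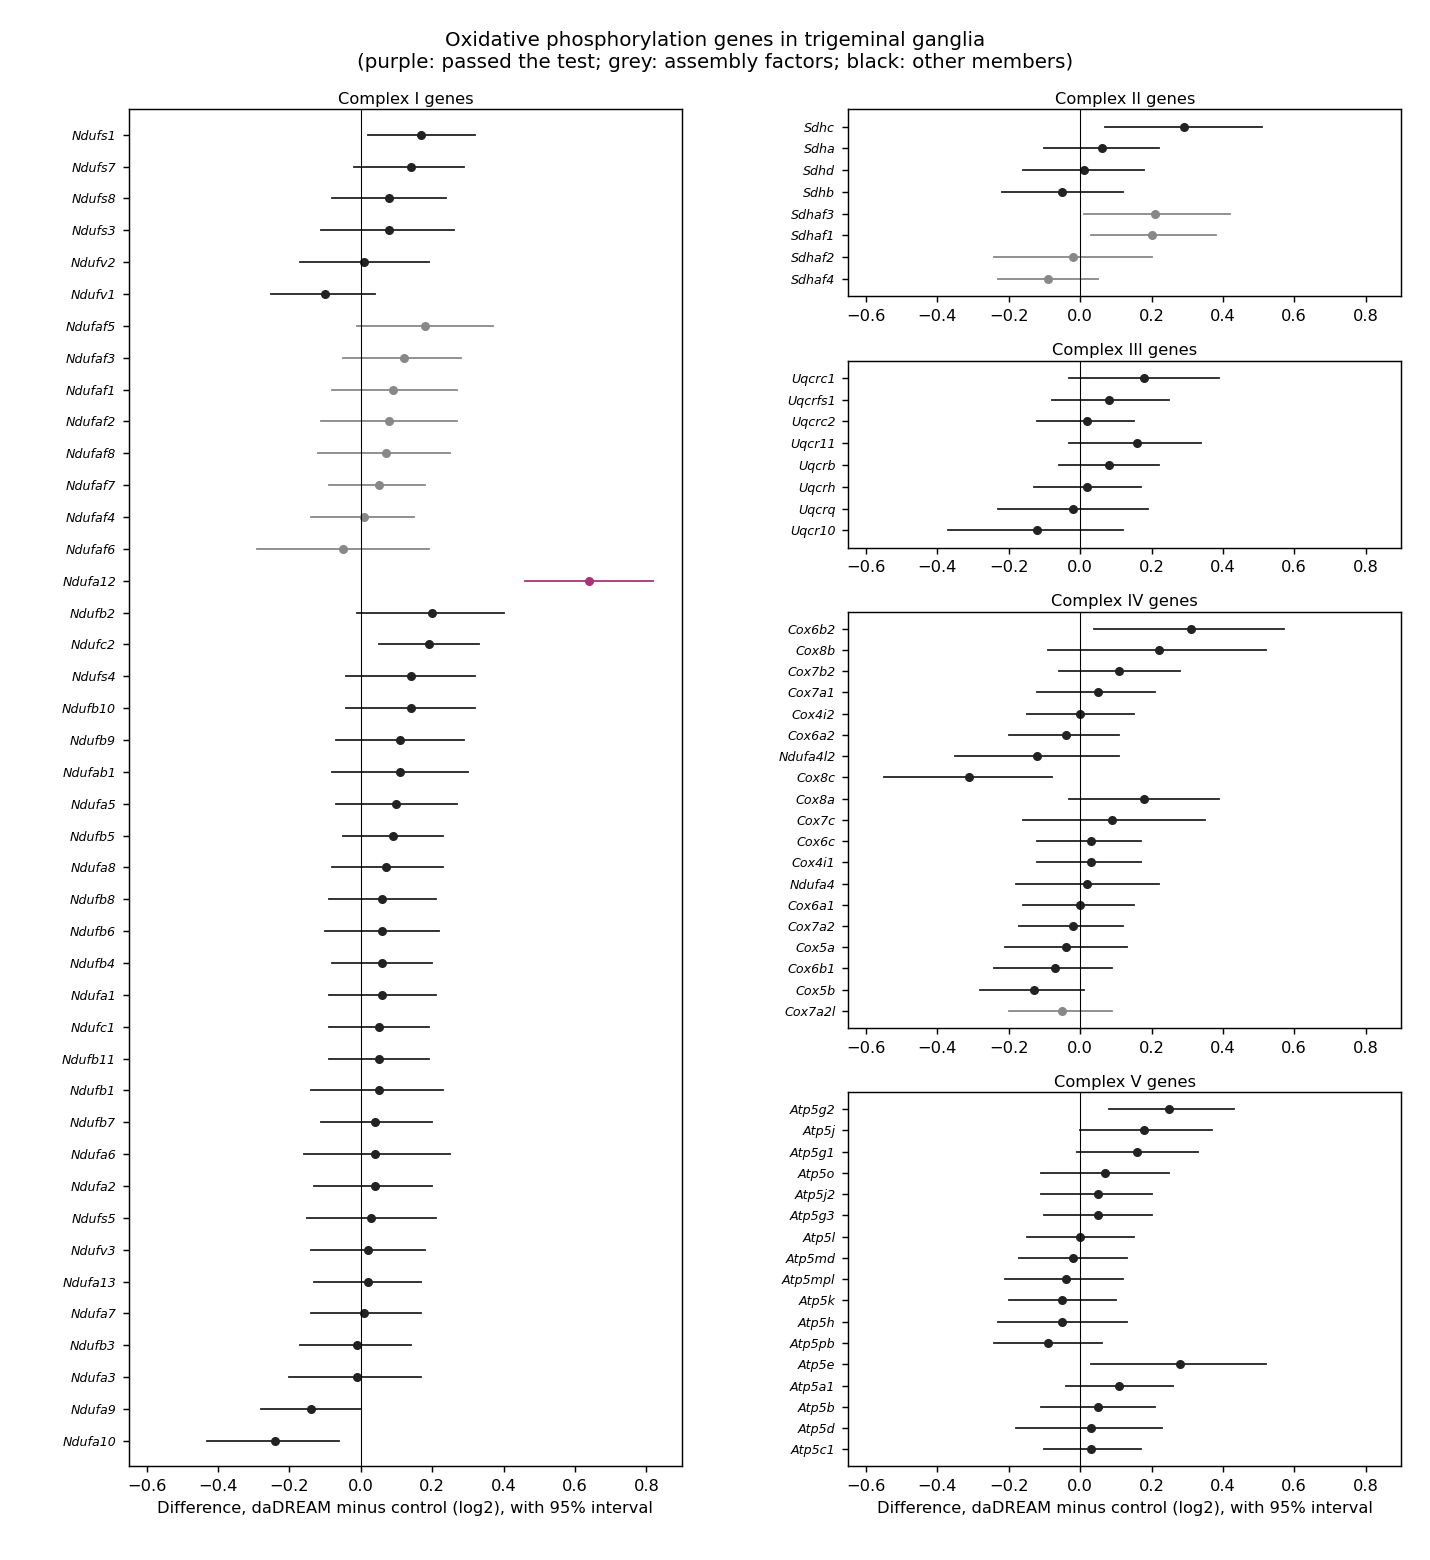
Difference of each of the 94 genes at its representative probe set between transgenic and control ganglia (log2, x axis). Bars are 95% intervals from limma, and genes are sorted by role within each complex. Ndufa12 at 0.64 stands clear of the others, which lie between -0.31 and 0.31.

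The members leaned slightly to higher values, unevenly among the complexes and depending on scaling. Differences above 0 were found for 67 of 94 members (71.3%), against 50.5% of all genes. Among genes with a mean of at least 8, where 85 members lie, the shares were 71.8% and 66.1%, and the medians 0.05 and 0.06. After renewed quantile normalization, 51 of 94 members (54.3%) were above 0 with a median of 0.01, against 46.8% of all genes. In complex I 36 of 42 members were above 0 (85.7%) with a median of 0.06, and in complex IV 9 of 19 (47.4%) with a median of 0. Complex II had 5 of 8, complex III 6 of 8 and complex V 11 of 17 above 0, with medians of 0.04, 0.05 and 0.05. The differences between complexes were not tested.

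**Figure D2:**
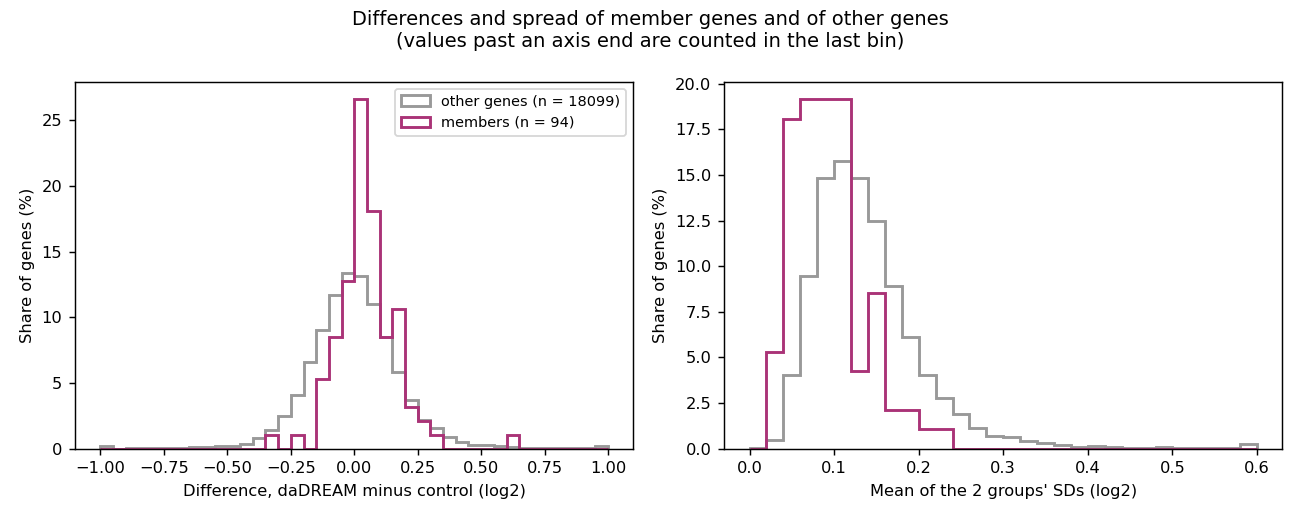
Left, share of genes (%) by difference between the groups (log2) for the 94 members and for the other genes. Right, share by the mean of both groups' SDs (log2). Members cluster nearer to a small positive difference and a small spread, with medians of 0.05 and 0.08.

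The arrays did not split cleanly by group. The median deviation of the members from their control means was 0.01, 0.05, -0.03 and -0.03 on control replicates 1 to 4 and 0.07, 0.05, 0.03 and 0.03 on transgenic replicates 1 to 4, so control replicate 2 lay within the transgenic range. Control replicates 3 and 4 were the lowest array for 30 and 31 of the 94 members (31.9% and 33.0%), against 11.2% and 27.4% of all genes. Transgenic replicate 1 was the highest array for 26 members (27.7%) and the lowest for 0, against 15.0% and 13.5% of all genes. Ties went to the array listed first. Control replicates 3 and 4 are those with Xist signal in the control group, and without the arrays with Xist signal 59 of the 94 differences were above 0 with a median of 0.03.

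**Figure D3:**
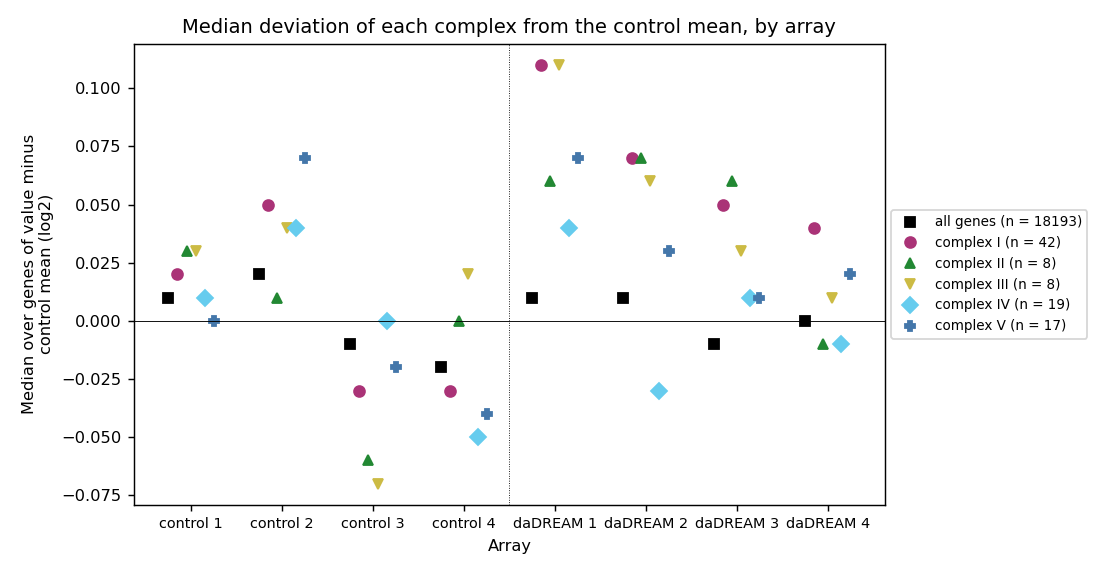
Median over the genes of each complex of the value minus the control mean (log2, y axis) on each of the 8 arrays, with the median over all genes as black squares. Complex I genes lie between 0.04 and 0.11 on the transgenic arrays and between -0.03 and 0.05 on the control arrays.

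Complex I has 7 core subunits coded in the nucleus, of which 6 were measured, and 0 of these passed. Ndufs1, which carries iron-sulphur clusters of the electron path, read 11.31, 11.32, 11.31 and 11.21 in controls and 11.43, 11.55, 11.45 and 11.39 in transgenic ganglia. The groups did not overlap, but the difference of 0.17 did not pass (SE 0.07, limma adjusted p = 0.234). Ndufv1, which binds NADH and the flavin cofactor, read 11.76 ± 0.06 and 11.66 ± 0.05 (SD, n = 4), a difference of -0.10 (adjusted p = 0.434). The other 4, Ndufs3, Ndufs7, Ndufs8 and Ndufv2, had differences from 0.01 to 0.14.

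Of the 28 accessory subunits of complex I, 1 passed, at a probe set that its other probe sets did not follow. Ndufa12, an accessory subunit of the arm that reaches into the matrix, read 11.84, 12.01, 11.88 and 12.12 in controls and 12.50, 12.62, 12.70 and 12.59 in transgenic ganglia. All 4 transgenic arrays lay above all 4 controls. The difference was 0.64, or 1.56-fold (SE 0.08, limma adjusted p = 0.00153). It came to 0.54 with the arrays highest in Acta1 left out (adjusted p = 0.0363), 0.68 without those with Xist signal (adjusted p = 0.0185) and 0.66 without those highest in 18S (adjusted p = 0.00727). Without those highest in Gh it was 0.57 and did not pass (adjusted p = 0.123), nor did it pass an unequal-variance test per gene (adjusted p = 0.0787).

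The probe set that passed (1455806_x_at) is the gene's brightest over the 8 arrays only through its transgenic values: in controls it averaged 11.96 and the next one 12.12. The other Ndufa12 probe sets did not rise. A probe set shared with other transcripts by its design suffix (1418814_s_at) read 12.19, 12.15, 12.04 and 12.09 in controls and 11.84, 11.92, 11.92 and 11.67 in transgenic ganglia. Here all transgenic arrays lay below all controls, at -0.28, which did not pass over all probe sets (limma adjusted p = 0.0933). Another bright probe set (1433513_x_at) differed by -0.06 and a dim one (1425919_at) by 0.08. The probe set that rose carries the suffix x, which Affymetrix gives where probes may also bind unrelated transcripts. The same suffix stands on 1433513_x_at, which did not rise, and on 1434341_x_at of Uqcr10, described below. The mean of the gene's probe sets differed by 0.09 (adjusted p = 0.378), and with the brightest probe set in controls Ndufa12 differed by -0.28 (adjusted p = 0.103), so the call and its direction rest on this probe set. Ndufaf2, the assembly factor that Ndufa12 resembles and replaces as complex I matures, read 9.48 ± 0.14 and 9.56 ± 0.09.

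Further complex I subunits had groups that did not overlap without passing. Ndufc2, in the membrane arm, read 12.67, 12.59, 12.61 and 12.59 in controls and 12.86, 12.82, 12.76 and 12.79 in transgenic ganglia, 0.19 higher (SE 0.06, limma adjusted p = 0.159). Its next probe set (1416366_at) read 11.88, 11.89, 11.76 and 11.82 against 12.02, 12.10, 12.07 and 12.00, a difference of 0.21. One more (1460506_s_at) read 11.56, 11.68, 11.67 and 11.18 against 11.99, 12.04, 11.96 and 11.94. All 3 bright probe sets were thus higher on every transgenic array than on any control. The remaining dim one (1431670_at, mean 5.85) went the other way, by -0.21, with overlapping groups. The representative (1455036_s_at) and 1460506_s_at carry the suffix of probe sets shared with other transcripts. Only 1460506_s_at passed over probe sets, at 0.46 or 1.38-fold (adjusted p = 0.0441). That call ended without control replicate 1 (0.47, adjusted p = 0.0895) and without transgenic replicates 1, 2, 3 or 4 in turn (0.44 to 0.47, adjusted p from 0.0789 to 0.131). It also ended without the arrays highest in Acta1, Gh or 18S or with Xist signal (0.31 to 0.55, adjusted p from 0.0821 to 0.196), and in the unequal-variance test (adjusted p = 0.325).

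Ndufb5 of the membrane arm read 12.01, 12.04, 12.02 and 12.02 in controls and 12.09, 12.17, 12.13 and 12.06 in transgenic ganglia, a difference of 0.09. Ndufa9, at the ubiquinone end of the matrix arm, was the lower one: 11.86, 11.82, 11.81 and 11.86 against 11.70, 11.71, 11.75 and 11.64, a difference of -0.14 (limma adjusted p = 0.284). Ndufa10, an accessory subunit that resembles a nucleoside kinase, had the lowest representative value in the complex, -0.24 (adjusted p = 0.179), with overlapping groups. Its dimmer probe set (1418068_at) went the other way, by 0.33 (adjusted p = 0.0928 over probe sets).

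The representative probe set of Ndufb4 averaged 4.88 and 4.93 in the groups, a dim signal near background. Brighter probe sets that also name Ndufb4b and Ndufb4c read 11.83 and 12.09 in controls and differed by -0.04 and 0.03. The multi-symbol probe set of Ndufs6 and Ndufs6b differed by 0.07, and the brighter one of Ndufa11 and Ndufa11b by 0.17, without passing. The 8 assembly factors Ndufaf1 to Ndufaf8 had differences from -0.05 to 0.18, and 0 passed.

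Complex II, succinate dehydrogenase, links the tricarboxylic acid cycle to the respiratory chain. Its catalytic subunit Sdha read 12.29, 12.11, 12.11 and 12.11 in controls and 12.20, 12.30, 12.24 and 12.13 in transgenic ganglia, with overlapping groups. Another Sdha probe set (1426689_s_at) was 0.20 higher without overlap, but did not pass (limma adjusted p = 0.207 over probe sets). Sdhb, the iron-sulphur subunit, differed by -0.05 (SE 0.08). Sdhc, a membrane anchor, read 10.64, 10.98, 11.01 and 10.63 in controls and 11.11, 11.03, 11.16 and 11.13 in transgenic ganglia. The groups did not overlap, though 11.03 and 11.01 lay close, and the difference of 0.29 did not pass (SE 0.10, limma adjusted p = 0.167). Its other probe set differed by 0.05. The assembly factor Sdhaf1 read 8.66, 8.76, 8.68 and 8.56 against 9.03, 8.77, 8.79 and 8.88, a difference of 0.20 (adjusted p = 0.223).

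Complex III held the member whose probe sets differed most from each other. Uqcr10, a small accessory subunit near cytochrome c1, is represented by a bright probe set (1424364_a_at) that read 11.80, 11.79, 11.41 and 12.03 in controls and 11.72, 11.62, 11.60 and 11.59 in transgenic ganglia. These groups overlapped, and the difference was -0.12 (SE 0.11, limma adjusted p = 0.580). The sign of that value turned when the arrays highest in 18S were left out, to 0.03.

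A second Uqcr10 probe set (1434340_at) read 9.24, 9.44, 9.37 and 9.43 in controls and 6.48, 6.36, 6.39 and 6.70 in transgenic ganglia. It fell by 2.89 on the log2 scale, or 7.40-fold (SE 0.09, limma adjusted p = 6.22e-09 over probe sets), which ranked 17 by size among 45037 probe sets. The transgenic mean of 6.48 is a dim signal, so the fold and the rank are those of the measured values and may understate the change. The remaining one (1434341_x_at) read 8.93, 9.35, 8.87 and 9.18 against 7.56, 7.63, 8.43 and 7.83 and fell 2.33-fold (difference -1.22, adjusted p = 0.00244). On both, every transgenic array lay below every control. The larger fall passed in each alternative that kept the probe set, with differences from -2.96 to -2.85, also without the arrays highest in Gh (adjusted p = 1.39e-05) and in the unequal-variance test (adjusted p = 0.00344). The smaller one came to -1.40 without the arrays highest in Acta1 (adjusted p = 0.0121), -1.56 without those highest in Gh (adjusted p = 0.00131), -1.27 without those with Xist signal (adjusted p = 0.0361) and -1.25 without those highest in 18S (adjusted p = 0.0319). It did not pass the unequal-variance test (adjusted p = 0.171). The gene passed as lower when represented by the mean of its probe sets (-1.41, adjusted p = 1.06e-05). The stretch of transcript that each probe set covers was not analysed here.

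**Figure D4:**
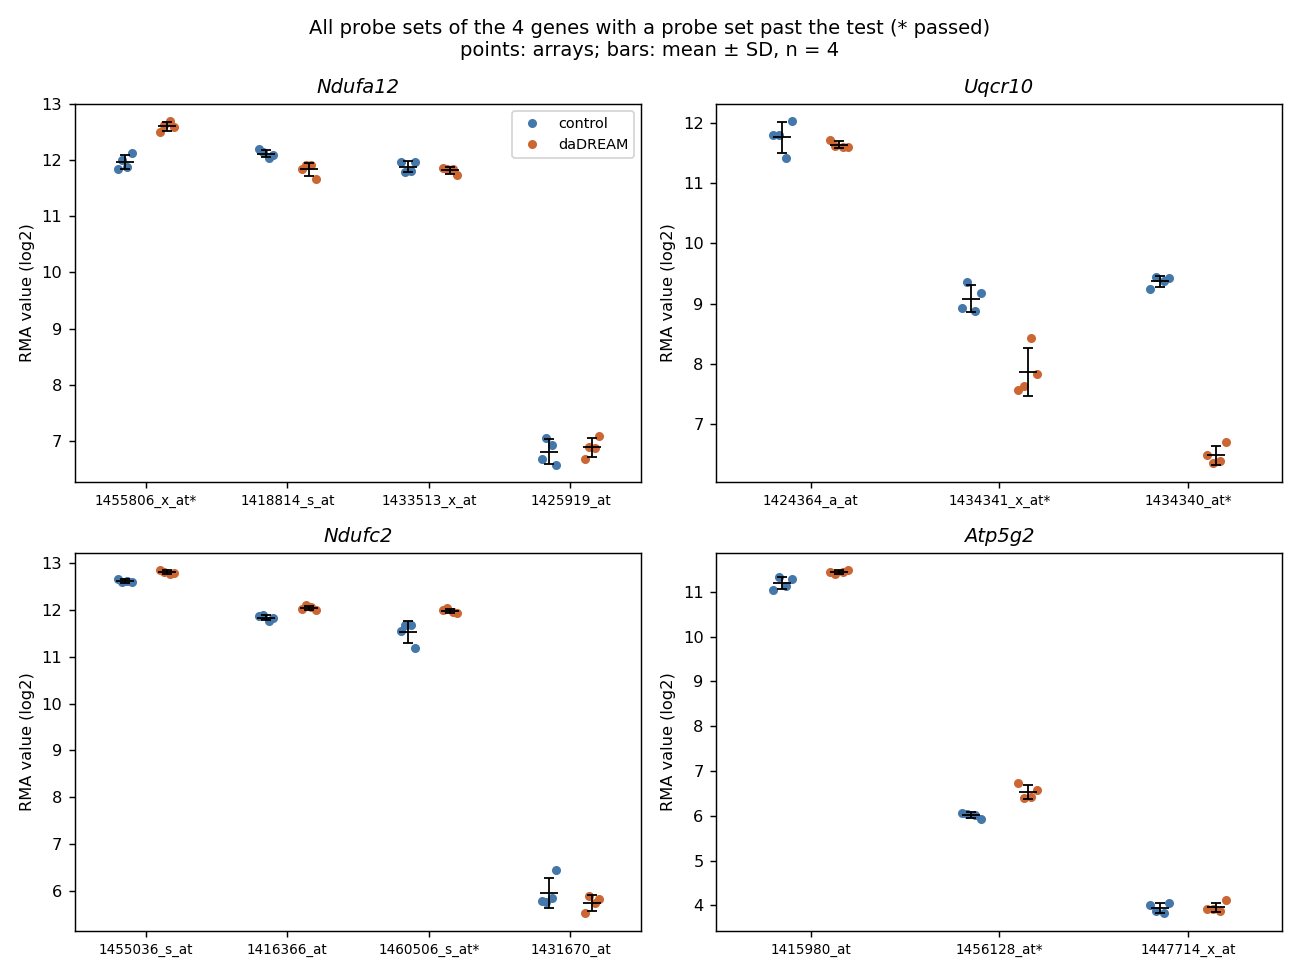
RMA log2 values (y axis) on the 8 arrays for every probe set (x axis) of Ndufa12, Uqcr10, Ndufc2 and Atp5g2; points are arrays, bars the mean ± SD of n = 4, and an asterisk marks probe sets that passed. Uqcr10 falls from 9.37 to 6.48 at 1434340_at while its brightest probe set reads 11.76 and 11.63, and Ndufa12 is higher at 1 of 4 probe sets.

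At their representative probe sets, the other complex III members moved little. Uqcrc1, a core protein of the complex, read 12.10, 12.29, 12.11 and 11.86 in controls and 12.29, 12.26, 12.39 and 12.14 in transgenic ganglia, with overlapping groups and a difference of 0.18 (limma adjusted p = 0.345). The Rieske iron-sulphur protein Uqcrfs1, which takes electrons from ubiquinol, differed by 0.08. Of the 8 members 0 passed at the representative probe set, with differences from -0.12 to 0.18. Cytochrome c1 (Cyc1), the catalytic subunit whose symbol lies outside the naming rule, read 11.91 and 11.98 as group means.

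Complex IV, cytochrome c oxidase, showed no member past the test among 19. Of the 10 general subunits measured, 5 differences were above 0 and 5 below, from -0.13 (Cox5b) to 0.18 (Cox8a). Cox4i1, the largest nuclear-coded subunit, read 13.54, 13.62, 13.65 and 13.51 in controls and 13.61, 13.64, 13.62 and 13.56 in transgenic ganglia. Cox5a differed by -0.04, Ndufa4 by 0.02, Cox6a1 by 0.00, Cox6b1 by -0.07 and Cox7a2 by -0.02, each with overlapping groups. The other Cox6b1 probe set (1416565_at) went the other way, 0.13 higher without overlap, and did not pass (limma adjusted p = 0.344 over probe sets). The sign of the values of Cox5a, Ndufa4, Cox6a1, Cox6b1, Cox7a2, Cox4i1 and Cox8a turned in at least 1 alternative. The 2 Cox7c probe sets were dim, with means of 6.58 and 4.98 over the arrays.

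Complex IV is also the complex with forms restricted to certain tissues. Cox6a2, Cox7a1 and Cox8b replace Cox6a1, Cox7a2 and Cox8a in heart and skeletal muscle. Cox6a2 read 7.72, 7.71, 7.79 and 7.76 in controls and 7.73, 7.63, 7.62 and 7.82 in transgenic ganglia. Cox7a1 read 7.58, 7.60, 7.45 and 7.48 against 7.59, 7.46, 7.54 and 7.70. On control replicates 1 and 3, where the muscle actin Acta1 was highest, Cox6a2 (7.72 and 7.79) lay within the range of the other arrays, and Cox7a1 (7.58 and 7.45) was once within and once just below it. Whether these probe sets, at means of 7.72 and 7.55 over the arrays, would register muscle RNA was not tested. Cox8b read 7.72, 7.47, 7.58 and 7.67 against 8.12, 7.38, 7.99 and 7.81, with overlapping groups. Of 18 skeletal muscle markers 0 passed, where 2.00% of all genes did. Before adjustment 10 of the 18 had a limma p under 0.05, against 18.2% of all genes. Of their differences 15 were below 0 and 3 above, with a median of -0.51. Their mean level ran from 6.60 to 7.83 in controls and from 6.56 to 6.64 in transgenic ganglia.

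Cox6b2, Cox7b2 and Cox8c are known from testis. Cox6b2 read 7.62, 7.79, 7.30 and 7.74 in controls and 8.20, 7.80, 7.82 and 7.85 in transgenic ganglia. The lowest transgenic array exceeded the highest control only narrowly, and the difference of 0.31 did not pass (SE 0.12, limma adjusted p = 0.226). Cox8c read 8.58, 8.57, 8.87 and 9.07 against 8.48, 8.46, 8.45 and 8.45. The transgenic arrays were nearly equal and below all controls, at a difference of -0.31 (SE 0.11, adjusted p = 0.171), and its dimmer probe set read -0.52 (adjusted p = 0.123 over probe sets). Cox7b2 lay near background at 4.92 and 5.03. Cox4i2, the form known from lung and low oxygen, read 6.42 in both groups, and the hypoxia-induced Ndufa4l2 differed by -0.12.

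**Figure D5:**
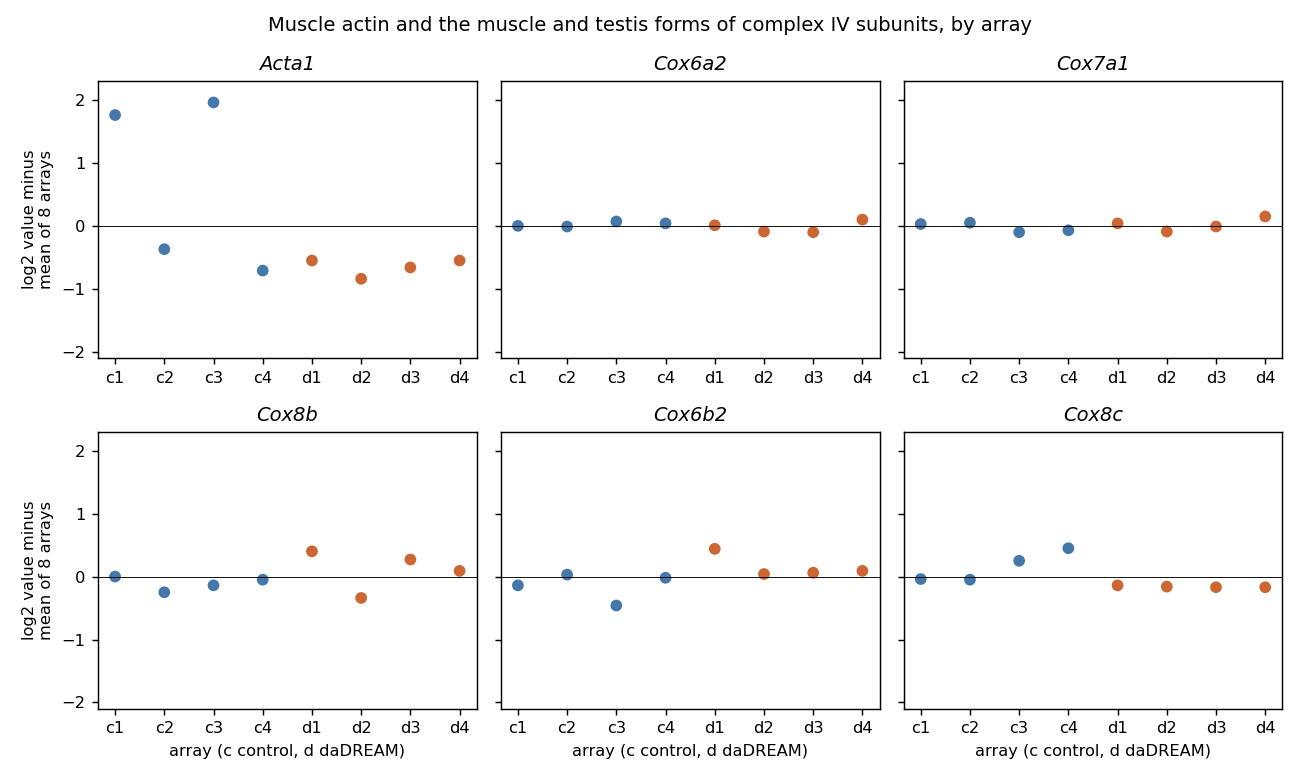
Log2 value minus the mean of the 8 arrays (y axis) on control arrays c1 to c4 and transgenic arrays d1 to d4 for the muscle actin Acta1, the muscle forms Cox6a2, Cox7a1 and Cox8b and the testis forms Cox6b2 and Cox8c. Acta1 reads 9.20 and 9.40 on c1 and c3 against 6.60 to 7.07 elsewhere, while Cox6a2 stays between 7.62 and 7.82.

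Complex V, the ATP synthase, had 0 of 17 members past the test at the representative probe set. In the F1 head, where ATP is made, Atp5a1 and Atp5b encode the alpha and beta subunits. Atp5a1 read 12.97, 12.98, 12.87 and 12.88 in controls and 13.00, 13.08, 13.11 and 12.95 in transgenic ganglia, and Atp5b read 13.75, 13.80, 13.70 and 13.62 against 13.82, 13.72, 13.85 and 13.68. Both pairs of groups overlapped, with differences of 0.11 and 0.05. Atp5e, the epsilon subunit, had the highest representative value of the complex, 0.28 (SE 0.11, limma adjusted p = 0.232), also with overlapping groups. Atp5d differed by 0.03 at its representative. Its other probe set (1423716_s_at) was 0.33 higher with overlapping groups (limma adjusted p = 0.180 over probe sets).

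Atp5g1, Atp5g2 and Atp5g3 encode the same mature c subunit of the proton-driven ring with different targeting sequences. Atp5g2 read 11.03, 11.32, 11.12 and 11.28 in controls and 11.44, 11.40, 11.43 and 11.49 in transgenic ganglia, without overlap (difference 0.25, limma adjusted p = 0.143). A dimmer Atp5g2 probe set (1456128_at) read 6.07, 6.04, 6.01 and 5.93 against 6.72, 6.40, 6.41 and 6.58 and rose 1.43-fold (adjusted p = 0.00660 over probe sets). Its control mean of 6.01 is near background. That call ended without the arrays highest in Acta1 (adjusted p = 0.0576), Gh (adjusted p = 0.119) or 18S (adjusted p = 0.0540), without those with Xist signal (adjusted p = 0.0986) and in the unequal-variance test (adjusted p = 0.171). Atp5g1 read 11.78, 11.89, 11.62 and 11.89 against 11.94, 11.98, 11.96 and 11.94, again without overlap (difference 0.16, adjusted p = 0.297). Its dim second probe set read -0.36. Atp5g3 read 13.48, 13.53, 13.56 and 13.37 against 13.51, 13.51, 13.56 and 13.55 and overlapped.

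In all, the groups did not overlap for 11 of the 94 members (11.7%), 9 higher and 2 lower, against 10.7% of all genes (5.0% higher and 5.73% lower). At the level of probe sets, 5 of 185 passed (3 higher, 2 lower), against 2.74% of all probe sets. These were the 1 of Ndufa12, the 1 each of Ndufc2 and Atp5g2 and the 2 of Uqcr10 described above. Of the 53 members with more than 1 probe set, the second brightest had the sign of the brightest in 32 and not in 21.

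Of 97 measured genes around the respiratory chain, on 8 lists of related functions, 0 passed limma over all genes, where 2.00% of all genes passed. Of the 97, 11 had an unadjusted limma p under 0.05, as did 18.2% of all genes. Among 12 further subunits and electron carriers the differences ran from -0.10 to 0.20, with cytochrome c (Cycs) at -0.10. Among 18 assembly genes of complexes III and IV, Uqcc1, which helps build complex III, had the lowest value (-0.37, limma adjusted p = 0.146). Among 10 assembly genes of complexes I and V the lowest was Timmdc1 (-0.39, adjusted p = 0.0981) and the highest Tmem126b (0.30), both complex I factors. The 10 nuclear regulators lay between -0.11 and 0.15, with the coactivator Ppargc1a at 0.15 and Nrf1 at -0.02. The 8 genes of mitochondrial DNA expression lay between -0.09 and 0.15. Of 16 tricarboxylic acid cycle genes 12 were above 0, from -0.03 to 0.24, where 50.5% of all genes and 66.1% of genes with a mean of at least 8 were above 0. Of 14 glycolysis genes 12 were above 0, with the phosphofructokinase Pfkl highest (0.44, adjusted p = 0.153). The 9 nucleotide and phosphate carriers and porins had a median of -0.06.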

How the data were processed

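The deposited values are log2 expression values; the submitters' processing notes name RMA and affy, with versions not given in the sources used here. RMA subtracts background, quantile-normalizes the arrays and summarises probes by median polish, so a shift shared by most genes is removed. Of 45101 probe sets, 64 Affymetrix controls were left out. Platform annotation gave 34945 probe sets 1 symbol, 932 several and 9160 none. No 2 arrays were identical, and correlations between arrays lay between 0.983 and 0.996. Genes were tested with limma 3.58.1 (lmFit, eBayes, two-sided, group only) in R 4.3.3 with Benjamini-Hochberg adjustment over 18193 genes, or over 45037 probe sets for single probe sets, and the script was tested on simulated data. Figures were drawn with matplotlib 3.10.9. The number of arrays limits the precision.

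Named members are those with a probe set past the test, those without overlap between groups, the 3 highest and 3 lowest differences, the smallest p of each complex, the tissue forms with their counterparts, the c subunit genes, 10 catalytic or core subunits, Kcnip3, Acta1, Gh and genes of the lists that passed; others were named after their values were seen, to complete a range or count. The members and lists were chosen with earlier results of these data known. Same-numbered arrays deviated together in part (correlations 0.25, 0.01, 0.30 and 0.34). Differently numbered arrays had correlations from -0.27 to 0.09, apart from 0.27 between control replicate 2 and transgenic replicate 1. The labels name no batch, so the replicate number was not used as a block. Whether arrays of 1 number share a source of spread was not tested, and counts with the number as a block are given below.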

Additional observations from a re-analysis of the deposited data

Results flagged for a closer look

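In 14 of the 188 groups of 4 arrays examined (94 genes in both groups), 1 array lay far from the other 3, by Dixon's ratio of its gap to the group's range at the 95% critical value. Chance flags about 1 in 20 groups. Transgenic replicate 1 was the high array for Ndufa7 (ratio 0.929; 12.19 against 12.05 to 12.06), Cox5a (0.929; 13.31 against 13.17 to 13.18), Cox6b2 (0.875; 8.20 against 7.80 to 7.85) and Atp5e (0.935; 11.55 against 11.24 to 11.26). On the other transgenic arrays, Ndufb9 was low on replicate 4 (0.917) and Ndufaf2 high on replicate 2 (0.842). Among controls, replicate 1 was high for Sdha (ratio 1; 12.29 against 12.11) and for Ndufa13 (ratio 1, but by 12.93 against 12.92, the last decimal of the deposited values). Control replicate 2 was high for Ndufb2 (0.900) and Cox8a (0.886). Control replicate 3 was low for Ndufs4 and Uqcrq (0.840 each). Control replicate 4 was low for Ndufs1 (0.909) and high for Atp5h (0.882).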

How the results depend on the processing

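Across 24 alternatives, 1 of the members passed in every one except 4: 0 passed in the unequal-variance test, 0 when the arrays highest in Gh were left out, and 4 when a gene was represented by its most variable probe set (Ndufa12, Ndufc2 and Atp5g2 higher, Uqcr10 lower). With the brightest probe set in controls (added after seeing the data), which changed the probe set of 3 members, 0 passed and Ndufa12 turned to -0.28 (limma adjusted p = 0.103). With the mean of a gene's probe sets the 1 that passed was Uqcr10, not Ndufa12. The 5 probe sets past the test became 3 when those with a mean under 8 were left out, 1 in the unequal-variance test, 2 with the Gh arrays left out, and 3 each without those highest in Acta1, with Xist signal or highest in 18S. Leaving out each array in turn gave 1 member throughout and 4 to 5 probe sets. With the replicate number as a block, 1 member and 5 probe sets passed, and 672 genes in place of 364. The count over all genes was 49 in the unequal-variance test, 98 without the Gh arrays, 171 without those highest in Acta1, 213 without those with Xist signal, 214 at a mean of at least 8, 227 without those highest in 18S, 229 and 236 without transgenic replicates 2 and 3, 697 with the most variable probe set and 703 at an adjusted p under 0.1. Over 890 values of named genes and probe sets in the alternatives, 19 lost their call in the same direction, 4 gained one, and 49 values of 19 genes changed sign, of which only that of Ndufa12 had been called. The median over members ran from 0.01 to 0.06. The representative probe sets of Ndufb4 and Cox7b2 lie near background, which limits what they show.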

Other observations

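The gene order of RefSeq GRCm38.p6 placed Ndufc2 among neighbours that were higher in transgenic ganglia. Of the 5 measured genes on each side, 4 of 10 rose and 0 fell, where 2.00% of all genes passed and 0.984% passed as higher: Kctd21 by 0.53 (limma adjusted p = 0.00563), the lipid synthesis regulator Thrsp by 0.58 (adjusted p = 0.0117), the Integrator complex subunit Ints4 by 0.53 (adjusted p = 0.00302) and the chromatin remodelling factor Rsf1 by 0.52 (adjusted p = 0.00210). The remaining 6 lay from -0.10 to 0.18, and Ndufc2 itself at 0.19. Among the 10 nearest measured genes of Ndufa12, Uqcr10 and Atp5g2, in each case 0 passed, with differences from -0.28 to 0.27, from -0.28 to 0.11 and from -0.23 to 0.08. The lowest adjusted p was 0.130 around Ndufa12, 0.142 around Uqcr10 and 0.156 around Atp5g2. These neighbours were chosen after the members' values were seen.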
